A study of Rattus norvegicus with 22 samples.

Results

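The p53 and DNA damage response genes were taken as the probe sets annotated to Cdkn1a, Mdm2, Ccng1, Gadd45a, Bax, Btg2 or Fas, and 10 probe sets of 5 of these 7 genes were found among 31042 probe sets of a rat Affymetrix array, whose probe sets with a single symbol name 14217 genes. There were 2 for Cdkn1a, 3 for Mdm2, 1 for Ccng1, 1 for Gadd45a and 3 for Fas. The only probe set annotated to Bax carries another gene symbol as well, so no value was assigned to Bax, and Btg2 was not analysed here. RNA came from rat spinal cord, 1 array per sample, and the contusion was made at thoracic level 10 by a rod of 10 g with a tip of 2.5 mm that fell 25 mm. The contused groups were X-ray (10 Gy in total, 20 min after injury, 3 arrays), clenbuterol (150 mg/kg, 20 min after injury, 2 arrays), tempol (275 mg/kg, 20 min after injury, 3 arrays), buthionine sulfoximine (BSO, 150 mg/kg, 24 h before injury, 3 arrays), tempol plus BSO at the same doses and times (3 arrays) and contusion without treatment (2 arrays), all collected 24 h after the contusion. The uninjured groups were laminectomy (3 arrays) and normal cord (3 arrays), for which the labels give no time of collection. Clenbuterol is a beta-adrenergic agonist, tempol a nitroxide that scavenges superoxide, and BSO an inhibitor of glutathione synthesis. Strain, sex and age are not given in the sources used here, and neither is whether the arrays of a group come from different animals, so the spread between arrays may be technical.

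The transcription factor p53 is made all the time in most cells and is kept scarce by Mdm2, the ubiquitin ligase that marks it for destruction. DNA breaks, such as those made by X-rays, free p53 from Mdm2, and p53 then switches on Cdkn1a, which halts the cell cycle, Ccng1, which recruits a phosphatase to Mdm2, Gadd45a, a stress sensor linked to repair and growth arrest, the death receptor gene Fas, and Mdm2 itself, which closes a feedback loop. In the spinal cord the same genes can also respond to other kinds of stress, and Cdkn1a and Gadd45a are induced by signals that do not pass through p53.

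The measured value of each probe set is a linear signal in arbitrary units. Every array was scaled by the authors to the same trimmed mean, 250 to 250.1 units with 2% of the values left out at each end. Laminectomy 2 and normal 1 stood apart: their median correlation over all pairs with another array was 0.667 and 0.685, where the rest had 0.725 to 0.785. Markers of oligodendrocytes, astrocytes and neurons were bright on every array, with summed signals of at least 27084.8, 13189.2 and 5779.7 units over 9, 8 and 13 measured genes. Because cord tissue was measured in bulk, a lower signal from fewer cells of a type and one from less RNA per cell cannot be told apart.

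Among the 5 measured genes, Ccng1, Mdm2 and Cdkn1a had their highest group mean after X-ray in all but 1 of their 6 probe sets, and their promoters are shown for that reason. The windows run from 250 bases before to 50 bases after the transcription start in the RefSeq annotation of the rat assembly GRCr8, each read 5′ to 3′ in the gene's direction, and the capitals mark the p53 half-site, the 10-base repeat unit of p53 binding sites, whose consensus reads the same on both strands.
Ccng1, chr10:25684827-25685126, minus strand: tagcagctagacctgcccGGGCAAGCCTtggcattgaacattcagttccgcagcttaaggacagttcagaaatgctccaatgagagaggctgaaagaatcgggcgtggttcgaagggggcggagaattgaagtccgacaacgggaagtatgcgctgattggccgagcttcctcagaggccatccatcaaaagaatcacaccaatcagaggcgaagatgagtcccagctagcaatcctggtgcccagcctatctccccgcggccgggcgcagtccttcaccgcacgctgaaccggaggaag
Mdm2, chr7:55200742-55201041, minus strand: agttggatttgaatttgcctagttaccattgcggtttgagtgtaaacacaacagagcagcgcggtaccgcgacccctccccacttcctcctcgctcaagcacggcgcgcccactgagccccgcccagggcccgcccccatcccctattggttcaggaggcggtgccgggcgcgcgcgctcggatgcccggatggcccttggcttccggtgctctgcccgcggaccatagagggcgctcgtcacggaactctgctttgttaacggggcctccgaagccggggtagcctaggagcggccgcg
Cdkn1a, chr20:7150682-7150981, plus strand: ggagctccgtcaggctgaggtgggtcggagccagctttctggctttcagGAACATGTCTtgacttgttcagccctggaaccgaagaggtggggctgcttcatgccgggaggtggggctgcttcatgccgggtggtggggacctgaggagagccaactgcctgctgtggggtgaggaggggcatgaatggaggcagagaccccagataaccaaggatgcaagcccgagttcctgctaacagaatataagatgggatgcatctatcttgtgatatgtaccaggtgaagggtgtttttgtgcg
A half-site was found at 232 bases before the start in Ccng1 and at 201 bases before it in Cdkn1a, counted to the first base of the match. The window of Gadd45a held 1 as well, GGGCTAGCCC, at 48 bases before the start, and those of Mdm2 and Fas held none. Of all 33469 rat promoter windows of this length, 7.98% held at least 1 half-site. The search asked for an exact match to the consensus, so units with a mismatch, also those next to a marked one, are not marked. These matches are letters in a window and do not show binding, and p53 sites of such genes may also lie outside it.

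Ccng1 showed the clearest difference after X-ray. It had signals of 1489.7, 1346.3 and 1553.4 in the X-ray arrays, against 588.3 and 450.7 in the untreated contusion arrays. All other arrays lay between 87.6 and 894.3, so that each X-ray array stood above each of the 19 others and the X-ray group did not overlap with any other group. The difference from contusion was 1.50 ± 0.61 on the log2 scale (2.84-fold, standard error after ±, unadjusted p = 0.0231), which did not pass after Benjamini-Hochberg adjustment over all probe sets in limma (adjusted p = 1.00). Against the mean of the 4 other treated groups, a comparison that uses no untreated contusion array, Ccng1 differed by 1.72 ± 0.44 (3.29-fold, unadjusted p = 0.000890, limma adjusted p = 0.432). This was the lowest p of the 10 probe sets in either X-ray comparison, and it missed the threshold of 0.05.

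Mdm2 was measured by 3 probe sets that did not run together over the 22 arrays, with Pearson correlations of 0.31, 0.12 and −0.029 between them. The brightest, 1383288_at, had signals of 1359.2, 1654.4 and 1617.5 after X-ray, against 1346.6 and 1265.8 in untreated contusion. Here too every X-ray array lay above each of the 19 others, which reached from 579.7 to 1346.6, but the margin over contusion was narrow. The difference was 0.24 ± 0.42 from contusion and 0.75 ± 0.30 from the other treated groups (limma adjusted p of 1.00 and 0.739).

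The middle Mdm2 probe set, 1384427_at, had signals of 357.2, 252 and 368.9 after X-ray, against 64.2 and 38.1 in untreated contusion. The groups did not overlap, and the difference of 2.70 ± 0.91 (6.50-fold) was the largest of any of the 10 probe sets in this comparison (unadjusted p = 0.00804, limma adjusted p = 0.942). The contusion reference was low here, with a mean log2 signal of 5.63 against 6.60 in laminectomy and 5.43 in normal cord. The means were 7.87 after clenbuterol, 6.79 after BSO, 6.70 after tempol plus BSO and 5.96 after tempol. The probe set lay at the 38.4th percentile of mean signal, and its difference ran from 2.11 to 2.74 under the alternative settings described below. Clenbuterol 1 (274.5) and BSO 1 (260.4) lay above the lowest X-ray array, and against the other treated groups the difference was 1.50 ± 0.65 (limma adjusted p = 0.773). The third, 1383485_at, lay near the bottom of the array, at the 5.18th percentile of mean signal, with 32, 13.7 and 18.3 after X-ray against 21.5 and 14.9 in contusion, and gave no separation (0.16 ± 0.72).

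Cdkn1a was bright and very variable. Its brighter probe set, 1388674_at, had signals of 1280.4, 1921.1 and 2712.3 after X-ray, against 1275.4 and 909.6 in untreated contusion. The X-ray group just cleared the contusion group, while single arrays of other treatments ran far below and above it, from 162.2 in tempol plus BSO 1 to 3869.1 in tempol 3. The difference was 0.81 ± 1.20 from contusion and 1.17 ± 0.86 from the other treated groups. The weaker probe set, 1387391_at, had 315.3, 211.3 and 363.6 after X-ray, against 195.7 and 61.6 in contusion. It differed by 1.40 ± 0.95 from contusion and by 1.82 ± 0.68 (3.52-fold, unadjusted p = 0.0155, limma adjusted p = 0.729) from the other treated groups. The difference from contusion hung on single arrays, with 0.56 without contusion 2 and 2.23 without contusion 1. The 2 probe sets correlated at only 0.23 over the 22 arrays.

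**Figure D1:**
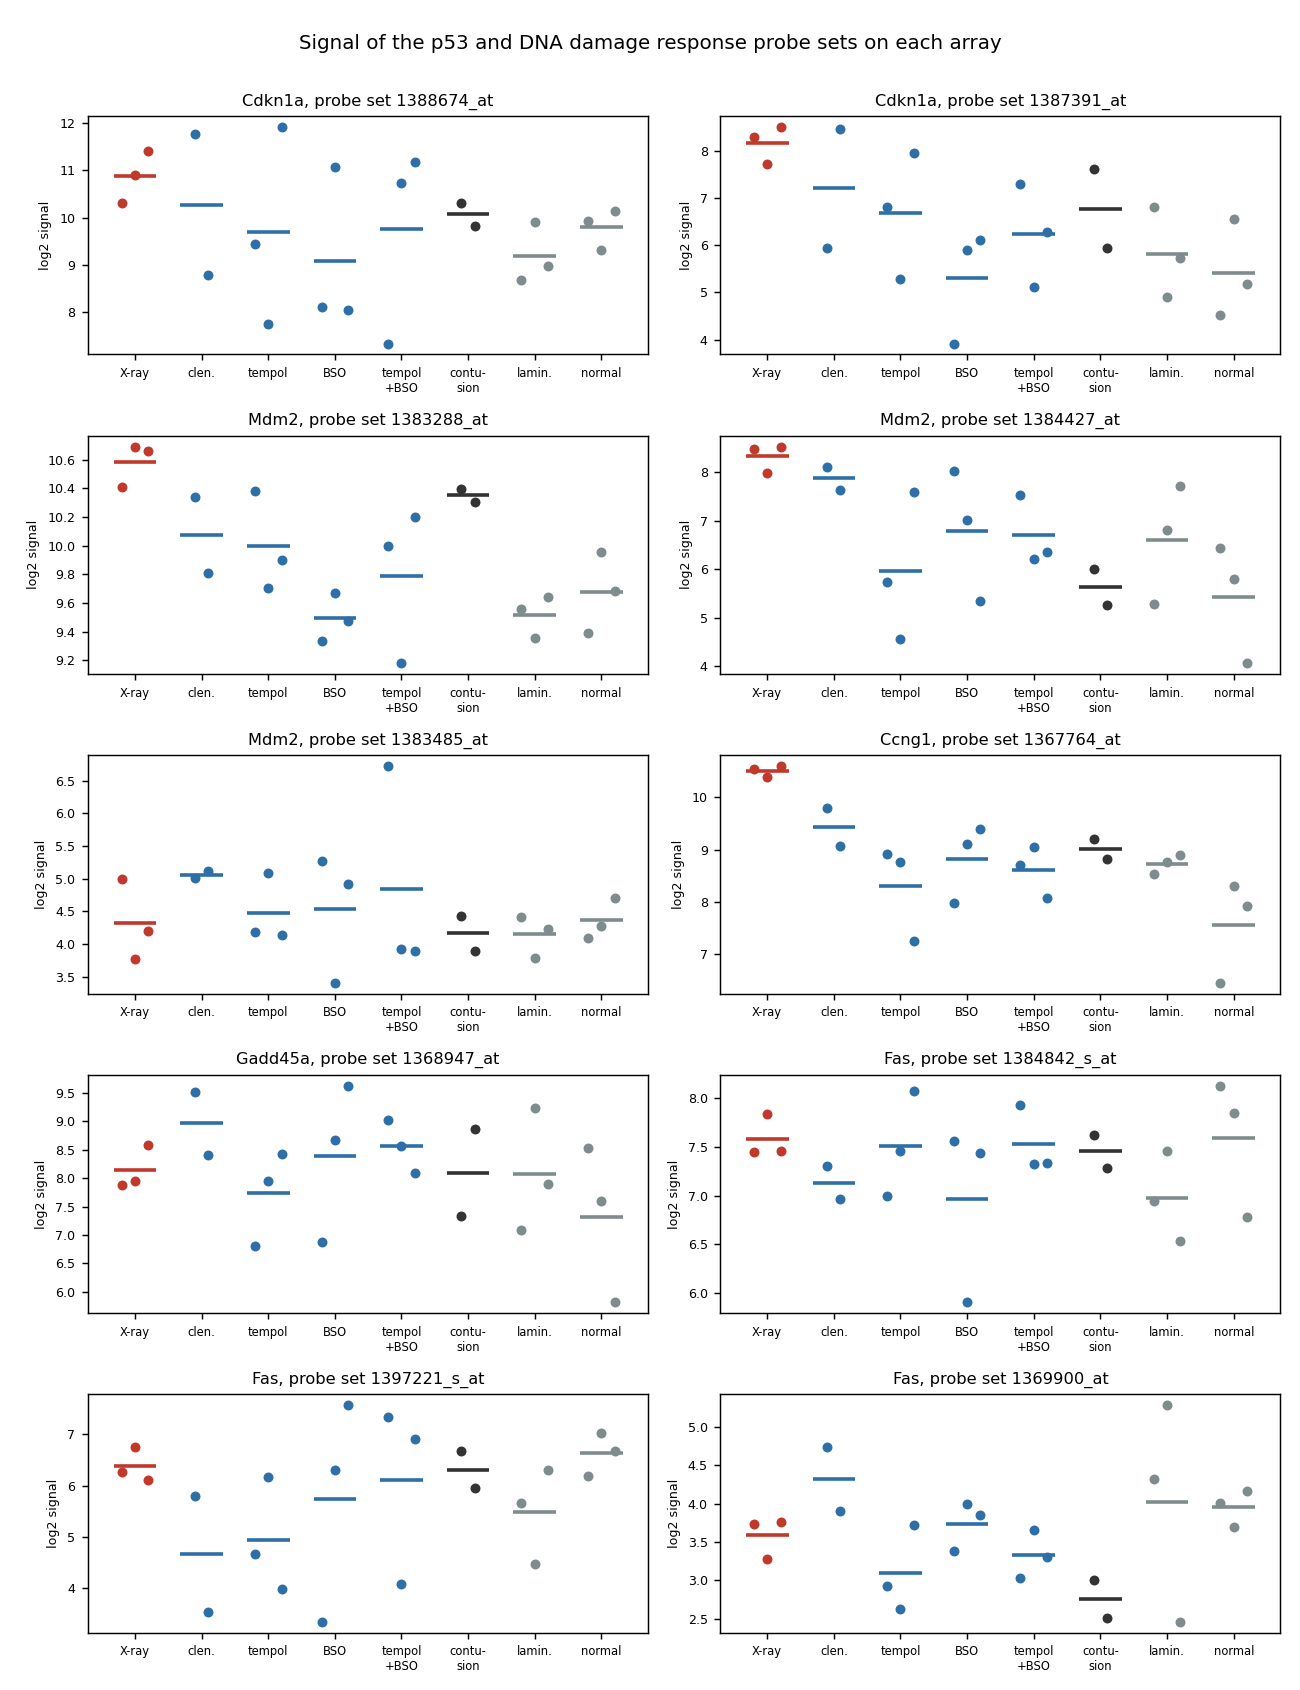
Signal of each of the 10 probe sets on the log2 scale (y axis), by group (x axis, with clen. for clenbuterol and lamin. for laminectomy), where each point is 1 array and each horizontal line is the group mean. The X-ray points stand above all other points for Ccng1 and for Mdm2 1383288_at, whereas Gadd45a and the Fas probe sets show no such separation.

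Gadd45a did not stand apart after X-ray. It had signals of 235.7, 248 and 385.5 there, against 161.5 and 465.3 in untreated contusion, and the difference was 0.043 ± 0.86. Its highest group mean was in clenbuterol, at 8.97 ± 0.78 on the log2 scale (SD, n = 2), against 8.10 ± 1.08 in contusion (SD, n = 2), and its highest single arrays were BSO 3 (793.5) and clenbuterol 1 (735.6). The lowest array was normal 3, at 56.3.

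Fas, the receptor through which Fas ligand triggers apoptosis, did not pass the threshold after X-ray in any of its 3 probe sets. The brightest, 1384842_s_at, had 174.7, 228.2 and 175.4 after X-ray, against 196.6 and 156 in untreated contusion (0.13 ± 0.55). For 1397221_s_at the signals were 76.6, 108.2 and 69.6 after X-ray, against 101.6 and 62.3 in contusion (0.065 ± 1.07). X-ray and contusion arrays overlapped in these 2 probe sets. The weakest, 1369900_at, at the 1.30th percentile of mean signal, had 13.3, 9.7 and 13.5 after X-ray, against 8 and 5.7 in contusion (0.83 ± 0.61), without overlap, its highest array was laminectomy 2 (39), and with 32 units added before the logarithm the difference was 0.18.

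Over all 10 probe sets, 0 passed the limma threshold in X-ray minus contusion, where the share of all probe sets that passed was 0%. At an unadjusted p under 0.05 there were 2 of 10 (Mdm2 1384427_at and Ccng1), against 4.81% of all probe sets, and both were higher, which 2.26% of all were. All 10 differences were positive (47.8% of all probe sets), with a median of 0.52 against −0.035 over all probe sets. The X-ray arrays all lay above both contusion arrays in 6 of the 10, against 11.5% of all. In X-ray minus the mean of the other 4 treated groups, 0 of the 10 passed against 0.00644% of all, and 4 had an unadjusted p under 0.05 (both Mdm2 1383288_at and 1384427_at, Cdkn1a 1387391_at and Ccng1), against 6.22% of all, and all 4 were higher, which 2.3% of all were. Of the 10 differences 7 were positive (49.2% of all), with a median of 0.88 against −0.010 over all. In 2 of the 10 every X-ray array lay above all 11 arrays of the other treatments, against 0.564% of all. These were the same 2, Ccng1 and Mdm2 1383288_at, that lay above all 19 other arrays, which 0.2% of all probe sets did. The last of these counts was chosen after the values were seen, the 2 X-ray comparisons share their X-ray arrays, and probe sets of 1 gene are not independent. The only 2 probe sets past the threshold in the second comparison, named after their values were seen, were of Creb1 and Cdyl2, and both fell (−3.19 ± 0.44 and −2.40 ± 0.36, limma adjusted p of 0.0238 and 0.0408).

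**Figure D2:**
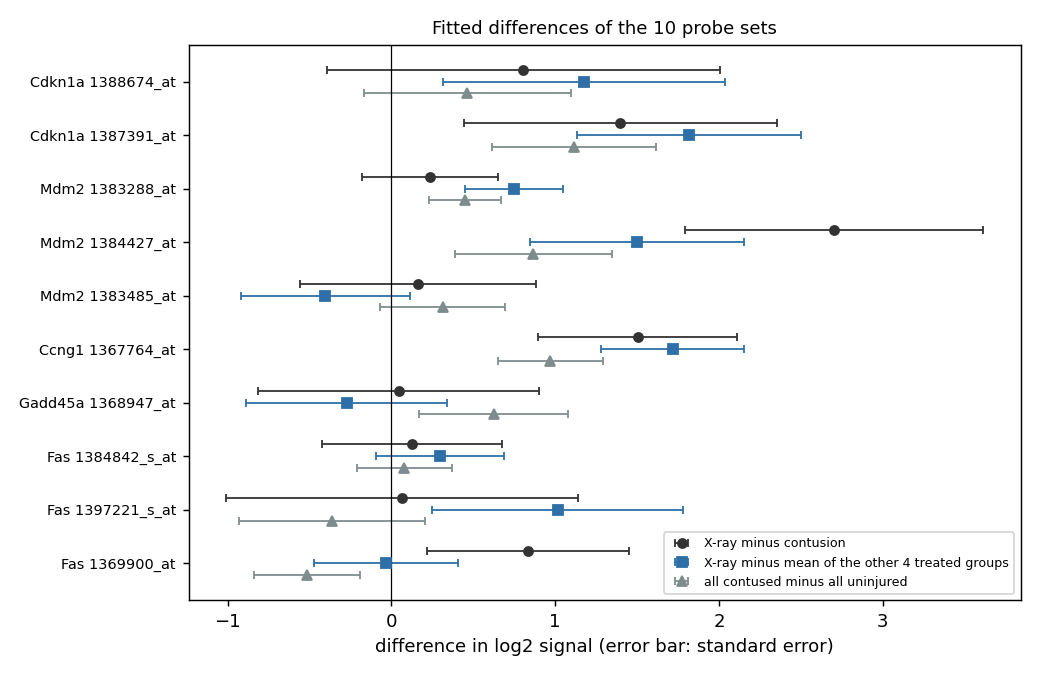
Fitted difference in log2 signal (x axis) of each of the 10 probe sets (y axis), with standard errors as bars, for X-ray minus contusion, X-ray minus the mean of the 4 other treated groups, and all contused minus all uninjured arrays. The bars of Ccng1, Cdkn1a 1387391_at and Mdm2 1384427_at lie clear of 0 in all 3 comparisons, but no probe set passed the adjusted threshold.

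Between contused and uninjured cord, Ccng1 again had the lowest p of these genes. Ccng1 ran from 151.8 to 1553.4 with a median of 531.8 over the 16 contused arrays, against 87.6 to 475.3 with a median of 344.25 over the 6 uninjured arrays. The ranges overlapped, and the difference between the equally weighted group means was 0.97 ± 0.32 (1.96-fold, unadjusted p = 0.00702, limma adjusted p = 0.256). Of that comparison the X-ray group is 1 of 6 contused groups. In untreated contusion alone Ccng1 had 588.3 and 450.7, against 371.1, 433.2 and 475.3 in laminectomy and 87.6, 317.4 and 244 in normal cord. Untreated contusion differed by 0.28 ± 0.61 from laminectomy and by 1.44 ± 0.61 from normal cord (limma adjusted p of 0.985 and 0.658). Laminectomy without contusion already differed from normal cord by 1.16 ± 0.54 (unadjusted p = 0.0456, limma adjusted p = 0.889), with every laminectomy array above every normal array. The share of all probe sets with such a separation was not counted. Both differences from normal cord include normal 1, which stood apart and had the lowest Ccng1 signal of any array (87.6). They are not given here without that array.

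Mdm2 1383288_at had 1346.6 and 1265.8 in untreated contusion, against 753.7, 653.5 and 800.2 in laminectomy and 671.3, 993.3 and 822.6 in normal cord. Both contusion arrays lay above all 6 uninjured arrays, with differences of 0.83 ± 0.42 from laminectomy and 0.67 ± 0.42 from normal cord (limma adjusted p of 0.932 and 0.836). The share of all probe sets with such a separation was not counted. Mdm2 1384427_at went the other way against laminectomy (−0.97 ± 0.91) and differed by 0.20 ± 0.91 from normal cord. For Mdm2 1383485_at these differences were 0.015 ± 0.72 and −0.20 ± 0.72. Cdkn1a 1387391_at had a median of 95.35 in contused arrays (15.1 to 363.6), against 44.9 in uninjured arrays (22.9 to 111.7), a difference of 1.11 ± 0.50 (unadjusted p = 0.0392, limma adjusted p = 0.446). The brighter Cdkn1a 1388674_at differed by 0.46 ± 0.63 (limma adjusted p = 0.846). Gadd45a had a median of 343.35 in contused arrays (111.9 to 793.5), against 215.65 in uninjured arrays (56.3 to 601.4), a difference of 0.62 ± 0.45. For Fas the 3 differences were 0.078 ± 0.29, −0.36 ± 0.57 and −0.52 ± 0.32.

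Of the 10 probe sets 0 passed in limma between all contused and all uninjured arrays, where 0.319% of all probe sets did, and 2 had an unadjusted p under 0.05, against 10.4% of all. Without laminectomy 2 and normal 1, the arrays that stand apart, the difference of Ccng1 was 0.70 ± 0.34, that of Cdkn1a 1387391_at 0.66 ± 0.58 and that of Gadd45a 1.22 ± 0.48. In untreated contusion 0 of the 10 passed against laminectomy (0.00322% of all) and 0 against normal cord (0.0483% of all), with 0 and 1 at an unadjusted p under 0.05 (5.38% and 6.65% of all). After laminectomy 0 of the 10 passed against normal cord (0.00644% of all), with 1 at an unadjusted p under 0.05 (5.59% of all).

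No difference in these genes passed the threshold after the other treatments. Ccng1 had a mean log2 signal of 10.51 ± 0.11 (n = 3) after X-ray, 9.43 ± 0.52 (n = 2) after clenbuterol, 8.83 ± 0.75 (n = 3) after BSO, 8.61 ± 0.49 (n = 3) after tempol plus BSO and 8.31 ± 0.93 (n = 3) after tempol, against 9.01 ± 0.27 (n = 2) in untreated contusion, 8.73 ± 0.18 (n = 3) in laminectomy and 7.56 ± 0.98 (n = 3) in normal cord, each with its SD. Apart from the step between X-ray and clenbuterol, neighbours in the order of these means differed by less than the larger of their SDs, and the array ranges of such neighbours overlapped. For Mdm2 1383288_at the means were highest after X-ray (10.59 ± 0.16), and lower after clenbuterol (10.07 ± 0.37), tempol (10.00 ± 0.35), tempol plus BSO (9.79 ± 0.54) and BSO (9.49 ± 0.17), against 10.35 ± 0.063 in untreated contusion, 9.68 ± 0.28 in normal cord and 9.52 ± 0.15 in laminectomy. All 3 BSO arrays (646.3, 812.3 and 711.6) lay below both untreated contusion arrays, a difference of −0.86 ± 0.42 (unadjusted p = 0.0530, limma adjusted p = 1.00).

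Cdkn1a 1387391_at had signals of 15.1, 60 and 69.4 after BSO and 158.4, 34.6 and 77.6 after tempol plus BSO, against 195.7 and 61.6 in untreated contusion. It differed by −1.47 ± 0.95 after BSO, by −0.55 ± 0.95 after tempol plus BSO, by −0.091 ± 0.95 after tempol and by 0.42 ± 1.04 after clenbuterol. After clenbuterol 2 probe sets had an unadjusted p under 0.05, Mdm2 1384427_at (2.24 ± 1.00, limma adjusted p = 0.929) and the dim Fas 1369900_at (1.57 ± 0.67, limma adjusted p = 0.929), where 5.36% of all probe sets did. After tempol, BSO and tempol plus BSO the counts were 0, 0 and 0, against 2.82%, 3.46% and 3.98% of all. In limma 0 of the 10 passed after any of these 4 treatments, where 0.00322% of all probe sets passed after clenbuterol and 0% after each of the other 3. These comparisons and X-ray minus contusion share the 2 untreated contusion arrays.

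The wider pathway was described by 6 lists with 120 measured genes, each represented by its brightest probe set. In X-ray minus contusion 0 of the 120 passed in limma, as did 0% of all probe sets, and 10 had an unadjusted p under 0.05 (6 higher and 4 lower), where 4.81% of all probe sets did. Against the other treated groups 0 passed, where 0.00644% of all probe sets did, and 4 had an unadjusted p under 0.05, against 6.22% of all, so neither count of 0 tells these genes from the rest of the array. Of 25 other measured p53 targets 14 were higher than in contusion, where 49.1% of all genes were, with a median difference of 0.30 against −0.013 over all genes. They included Phlda3, an inhibitor of the kinase Akt, with 789.1, 413.1 and 525.3 after X-ray against 367.2 and 93.7 in contusion (1.58 ± 0.87), and Xpc, which recognises damaged DNA (0.96 ± 0.48). Sesn3, a sestrin that restrains growth signalling, had 146.7, 114.1 and 168.1 after X-ray against 306.1 and 291.2 in contusion (−1.08 ± 0.51). These were the 3 genes with the lowest p of the 25, and all 3 had a limma adjusted p of 1.00. The X-ray arrays of Phlda3 and Xpc all lay above both contusion arrays, as in 11.5% of all probe sets, and those of Sesn3 lay below both. The share of all probe sets that were lower without overlap was not counted. Picking the genes with the lowest p favours those without overlap.

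Among 11 measured genes of p53 and its regulators 4 were higher (median −0.094). Mdm4, the partner of Mdm2 that blocks p53, had 1226.9, 713 and 1119.3 after X-ray against 162 and 402.6 in untreated contusion (1.96 ± 0.52, unadjusted p = 0.00142, limma adjusted p = 0.942). It differed by only 0.39 ± 0.38 from the other treated groups, whose arrays reached 1122.3. Tp63, a relative of p53, and Hipk2, a kinase that activates it, differed by −1.65 ± 0.69 and −1.62 ± 0.78 from contusion. Tp63 was dim, with 15.8, 15.5 and 66 after X-ray against 85.5 and 73.9 in contusion, and with 32 units added before the logarithm its difference was −0.88. Among 26 genes of damage sensing and repair 12 were higher (median −0.19). Parp1, which senses DNA breaks, had 2244.1, 2009 and 2423.7 after X-ray against 1103.3 and 1221.1 in contusion (0.93 ± 0.40, unadjusted p = 0.0304, limma adjusted p = 1.00), and all 3 X-ray arrays lay above all 19 others (781.5 to 1744.5). Of the 26 genes only Parp1 stood above in this way. Of the 25 other p53 targets 0 did, where 0.295% of all genes did. Xrcc6, a subunit of the Ku complex of end joining, differed by 2.43 ± 0.87 and the mismatch repair gene Msh6 by 1.40 ± 0.57. Both were dim, with 88, 170.8 and 53.6 after X-ray against 20.5 and 14.5 in contusion for Xrcc6 and 85, 59.8 and 60.7 against 15.8 and 41.3 for Msh6. With 32 units added their differences were 1.37 and 0.75.

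Of 12 relatives of Gadd45a, Btg2 and Cdkn1a, 10 were higher after X-ray than in contusion (median 0.48), where 49.1% of all genes were. Btg3, an antiproliferative gene of the Btg family, had 338.8, 516.8 and 551.7 against 179.4 and 219.7 (1.21 ± 0.54), Cdkn1b, another inhibitor of cyclin-dependent kinases, differed by 1.18 ± 0.60 and Cdkn2c by 0.49 ± 0.51. Of 23 apoptosis genes around Bax and Fas 13 were higher (median 0.074). Among them Hrk, a neuronal activator of cell death, had 113.9, 255 and 162.5 against 48.5 and 31 (2.11 ± 0.68, unadjusted p = 0.00609, limma adjusted p = 0.942), Bad, a sensitizer to cell death, differed by 0.66 ± 0.45 and Diablo, which relieves the block of caspases, by 0.77 ± 0.56. Hrk was dim, and its difference ran from 1.50 to 2.21 under the alternative settings. Of 23 cell cycle genes 7 were higher and the median was −0.36. The replication helicase gene Mcm6 differed by −2.46 ± 0.97, the cyclin gene Ccne1 by −1.40 ± 0.66 and Birc5, a component of the mitotic machinery, by −1.12 ± 0.57. Mcm6 and Birc5 were dim, with 109.8, 16.3 and 17.4 after X-ray against 137 and 217.5 in contusion for Mcm6 and 27.4, 24.7 and 30.9 against 52.9 and 68.2 for Birc5. With 32 units added before the logarithm their differences were −1.56 and −0.63. Against the other treated groups the medians of the 6 lists were 0.18 for p53 targets, −0.085 for regulators, −0.16 for damage and repair, 0.49 for the relatives, 0.31 for apoptosis and −0.38 for the cell cycle, against 0.026 over all genes.

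**Figure D3:**
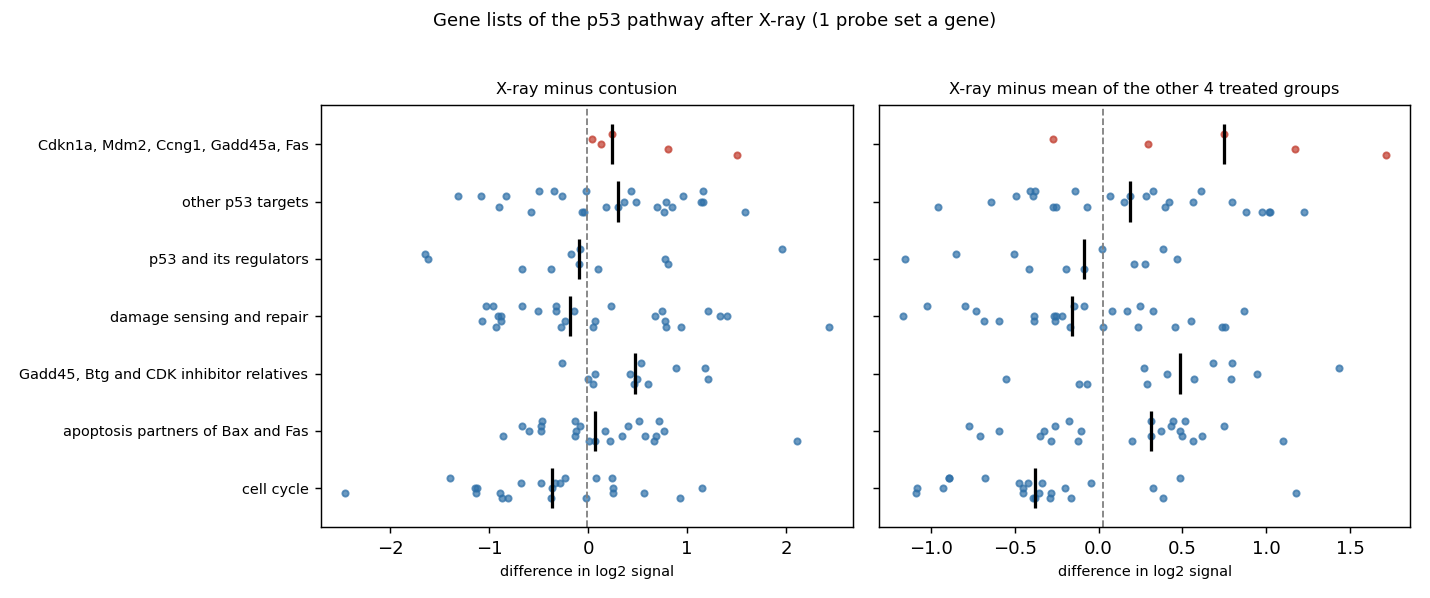
Difference in log2 signal after X-ray (x axis) for each gene (point) of the 5 measured genes and of 6 gene lists of the p53 pathway (y axis), against untreated contusion on the left and against the mean of the other 4 treated groups on the right. Black bars mark list medians and the dashed line the median over all genes, and the cell cycle list lies lowest in both panels.

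In all contused against all uninjured arrays 0 of the 120 genes passed in limma, where 0.319% of all probe sets did, and 12 had an unadjusted p under 0.05 (10 higher and 2 lower), against 10.4% of all. Bak1, a pore-forming partner of Bax, had a median of 105.1 over contused arrays (10.9 to 175.9), against 20.1 over uninjured arrays (7.2 to 120.5), a difference of 1.85 ± 0.57 (unadjusted p = 0.00425, limma adjusted p = 0.211). With 32 units added before the logarithm the difference of Bak1 was 1.00. Mcl1, which protects from cell death, differed by 1.06 ± 0.36, and Diablo by 0.88 ± 0.30. Birc5 had a median of 52.4 over contused arrays (24.7 to 119.4), against 125.2 over uninjured arrays (60.1 to 184.8), a difference of −1.15 ± 0.30 (unadjusted p = 0.00119, limma adjusted p = 0.133). The helicase genes Mcm3 and Mcm6 differed by 1.00 ± 0.37 and 1.23 ± 0.51, and among the relatives Btg3 differed by 0.84 ± 0.28, Gadd45g by 0.76 ± 0.35 and the antiproliferative gene Tob1 by −0.81 ± 0.39. Among other p53 targets Sesn3 differed by −0.59 ± 0.27, Phlda3 by 0.91 ± 0.46 and Sesn2, another sestrin, by 0.64 ± 0.34. Rchy1, a ubiquitin ligase for p53, differed by −0.54 ± 0.26, Tp63 by 0.58 ± 0.36 and Tp53bp2, a binding partner of p53, by −0.40 ± 0.36. In the repair list Parp1 differed by 0.46 ± 0.21, the DNA ligase gene Lig1 by 0.57 ± 0.30 and Ogg1, which removes oxidised guanine, by −1.05 ± 0.50. Without laminectomy 2 and normal 1 the differences were −0.19 for Rchy1, 0.20 for Lig1, 0.43 for Mcm3, −0.41 for Tob1, 1.16 for Gadd45g and −0.67 for Tp53bp2. The apoptosis list had 17 of 23 genes higher (median 0.32) and the other p53 targets 11 of 25 (median −0.029), where 50.4% of all genes were higher and their median was 0.0058.

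The neutrophil markers S100a8 and S100a9 were high on the same arrays as Ccng1 and Mdm2, while the other 3 measured neutrophil markers did not separate these arrays. The summed signal of 5 measured neutrophil markers was 3143.4 to 4272 after X-ray, against 1472.4 to 2294.8 in untreated contusion, and it reached 2839.6 at most in any other group. Of the 5 genes 4 were higher than in contusion, with a median difference of 0.55, and 0 passed the limma threshold, as did 0% of all probe sets. The exception was Camp, an antimicrobial peptide gene (−1.28 ± 1.12). The mean log2 signal over the 5 markers, in which the bright S100a8 and S100a9 weigh no more than the others, was 8.32, 8.06 and 8.64 after X-ray, but 8.62 in tempol plus BSO 1, 8.40 in BSO 3 and 8.18 in contusion 2, so on that scale the X-ray arrays overlapped with others. S100a9, a subunit of calprotectin, had 1757.4, 2786.3 and 2335.9 after X-ray against 634.3 and 1267.3 in contusion (1.33 ± 0.76, limma adjusted p = 1.00), and its partner S100a8 had 754.9, 924.1 and 966.3 against 279.1 and 321 (1.55 ± 0.74, limma adjusted p = 1.00). For both genes all X-ray arrays lay above all 19 others, which held for 0.295% of all genes. Between all contused and all uninjured arrays both rose (S100a9 by 2.70 ± 0.40, S100a8 by 2.00 ± 0.39, limma adjusted p of 0.00328 and 0.0318). The marker genes Mpo, Elane, Ltf and Ngp were not analysed here. Summed macrophage and microglia markers were 17766.7 to 20690.1 after X-ray, against 9970.6 to 17955.2 in the other treated groups and 19870.4 to 20750.4 in contusion. Against the other treated groups, the comparison in which Ccng1 had its lowest p, 9 of the 13 macrophage and microglia markers were higher (median 0.42 against 0.026 over all genes). Against contusion 6 of the 13 were higher (median −0.13). Cd68, with the lowest p of this list against contusion, was lower (−1.93 ± 0.88), with every X-ray array below both contusion arrays. The mean log2 signal over the 13 markers was 8.71 to 8.89 after X-ray, but 8.98 in tempol plus BSO 2 and 9.08 in contusion 2. Lyz2, the lysozyme gene of myeloid cells, differed by 0.66 ± 0.29 from the other treated groups and by 0.11 ± 0.41 from contusion (limma adjusted p of 0.775 and 1.00). It was the only 1 of the 13 whose X-ray arrays all lay above all 19 others. Summed astrocyte markers were 32520.7 to 34415.9 after X-ray, against 13189.2 to 33481.4 in the other treated groups and 19601 to 21206.3 in contusion. Their mean log2 signal was 9.79 to 10.03 after X-ray, but 10.14 in clenbuterol 1 and 10.02 in BSO 2. Other lists were also higher than in contusion, where 49.1% of all genes were. These were 9 of 9 oligodendrocyte markers (median 0.36), 10 of 13 neuron markers (median 0.47) and 5 of 8 endothelial and pericyte markers (median 0.19). The part of these cells in the signals of Ccng1 and Mdm2 was not tested. The log2 ratio of the signals from the 3′ and 5′ ends of Gapdh was 0.40 ± 0.23 (SD, n = 3) after X-ray and 0.37 ± 0.32 (SD, n = 11) after the other treatments. It was 0.27 and 0.33 in untreated contusion and 0.64 ± 0.45 (SD, n = 6) in uninjured arrays, with 1.49 in normal 1. The same ratio of Hexokinase spread more, with 0.35 ± 0.72 after X-ray and 0.015 ± 1.88 after the other treatments. In contusion 1 and contusion 2 it was −2.01 and 3.03.

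**Figure D4:**
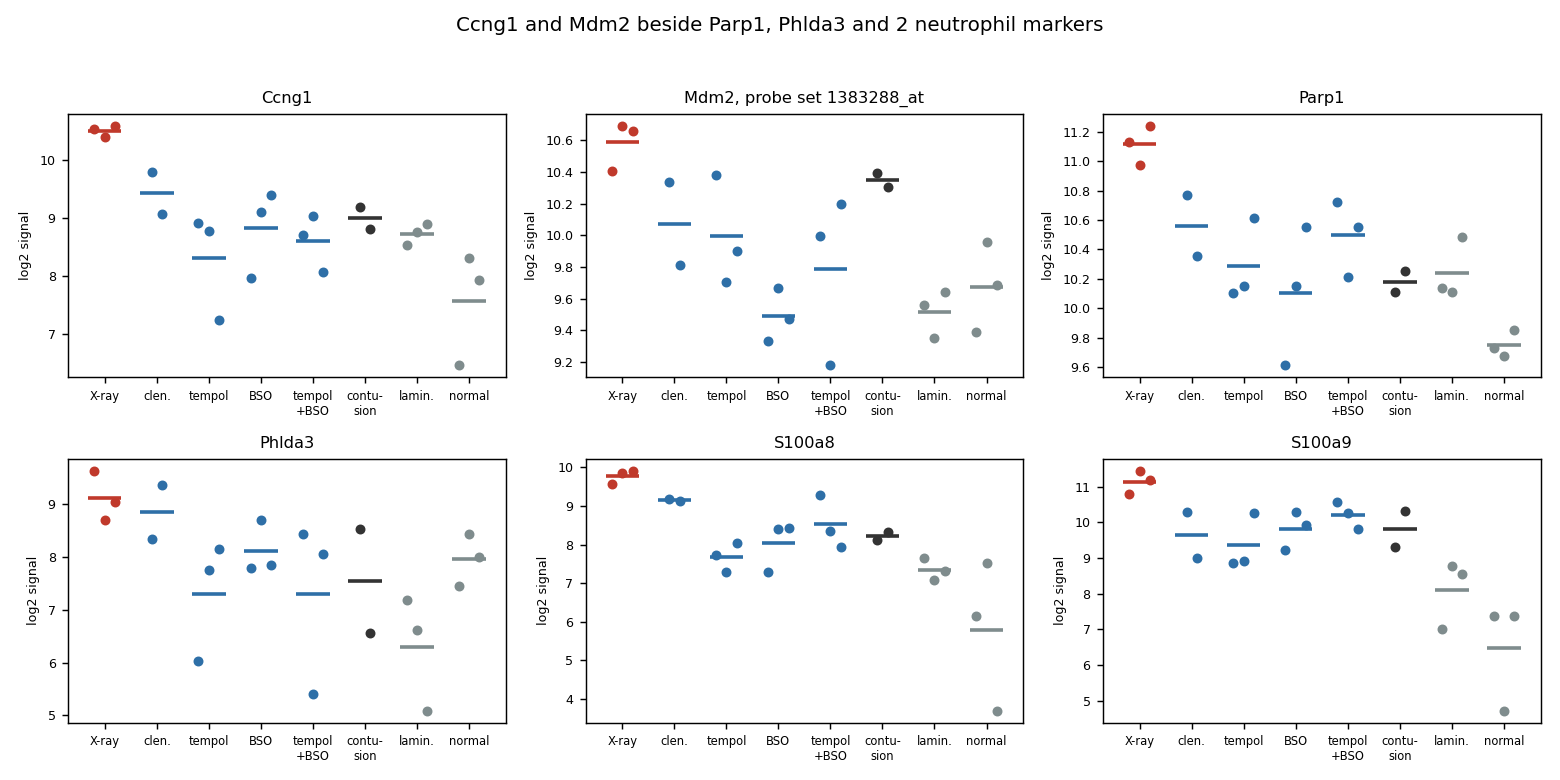
Log2 signal (y axis) of Ccng1, Mdm2 1383288_at, the break sensor Parp1, the p53 target Phlda3 and the neutrophil markers S100a8 and S100a9 by group (x axis), where points are arrays and lines group means. In every panel but that of Phlda3, the 3 X-ray arrays stand above the other 19 arrays.

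Over the 22 arrays the genes whose log2 signals ran most like Ccng1 were RT1-DMb, of the antigen loading machinery (Pearson r = 0.80), Hgs, an endosomal sorting gene (0.79), and Cd14, the lipopolysaccharide coreceptor of macrophages (0.78). For Mdm2 1383288_at they were Atat1 (0.78), Mad2l1bp (0.77) and Rpl3 (0.77), for Cdkn1a 1388674_at Med17 (0.71), Zbed4 (0.70) and Atpaf1 (0.69). For Gadd45a they were Cnbp (0.85) and the RNA helicase genes Ddx3x (0.84) and Ddx5 (0.83), and for Fas 1384842_s_at Lmod3 (0.81), Ankrd44 (0.77) and Setdb1 (0.77). These are the highest values out of 20823 to 20825 probe sets of named genes, the arrays fall into 8 groups, and all points of an array share its scaling and RNA quality.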

How the data were processed

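RNA of 22 rat spinal cord samples was hybridised to 1 Affymetrix array each, and the samples were grouped by their source labels. The authors deposited 1 table of linear signal intensity per probe set. The submitters' processing notes name RMA, but the deposited intensities are linear and reach from 0.3 to 154527.2 units. They share a common trimmed mean without equal distributions, and how they were made is not otherwise given in the sources used here. For this report log2 was taken with no offset, 57 control probe sets were left out, and 31042 probe sets were fitted in limma 3.58.1 (R 4.3.3) with a mean for each of the 8 groups. Variances were moderated by eBayes, with 14 residual degrees of freedom, and p-values were adjusted by Benjamini-Hochberg over all probe sets of a comparison, with a threshold of 0.05. The fit was tested on simulated data. The p-values measure only the spread between these arrays, and the number of arrays limits the precision.

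Gene names came from the platform annotation, in which 20826 probe sets have 1 symbol, 436 several and 9780 none. Probe sets with several symbols were not named. All probe sets of the 7 genes were described, and from each pathway list the 3 genes with the smallest p in X-ray minus contusion and in all contused minus all uninjured were named, with the brightest probe set per gene. From each list of cell type markers at most 2 genes were named by the same rule, and Camp and Lyz2 were named in addition after their values were seen. The genes and lists were chosen with earlier results of these data known. The alternatives were quantile normalization, an offset of 32 before the logarithm, a filter on low signal, other moderation, fits of only the groups compared, array weights, a replicate block, a fit without laminectomy 2 and normal 1, and leaving out each array in turn.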

Additional observations from a re-analysis of the deposited data

How the results depend on the processing

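Under 8 alternatives and with each of the 22 arrays left out in turn, 0 of the 10 probe sets passed in any of the 10 comparisons, and the filter on low signal kept 5 of the 10. In X-ray minus contusion the sign turned for Gadd45a with array weights (−0.0032) and for Fas 1397221_s_at with the replicate block (−0.12), and in X-ray minus the other treated groups for Fas 1369900_at with quantile normalization (0.042). With 1 array left out, X-ray minus contusion ran from −0.72 to 0.81 for Gadd45a, from −0.040 to 0.29 for Fas 1384842_s_at, from −0.29 to 0.42 for Fas 1397221_s_at and from −0.18 to 0.44 for Mdm2 1383485_at. X-ray minus the other treated groups ran from −0.14 to 0.12 for Fas 1369900_at, and all contused minus all uninjured from −0.12 to 0.21 for Fas 1384842_s_at. The cause was not tested.

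The number of all probe sets past the threshold depended more on the setting. In X-ray minus contusion it was 1 with the filter and 2 with array weights, against 0. In X-ray minus the other treated groups it was 10 with the filter, 19 with array weights and 0 with the offset of 32, with only the groups compared, with the replicate block or without laminectomy 2 and normal 1, against 2. In clenbuterol minus contusion it was 2 with the filter and 0 with the offset or only the groups compared, against 1. With the filter it was 1 for BSO and 1 for tempol plus BSO, against 0 each. In contusion minus laminectomy it was 0 with the offset, with only the groups compared or without those 2 arrays, against 1. In contusion minus normal it was 23 with the offset, 49 with the filter, 34 with other moderation, 29 with array weights and 0 with only the groups compared, against 15. In laminectomy minus normal it was 9, 14 and 16 with the offset, the filter and other moderation, 0 with only the groups compared and 4 without those 2 arrays, against 2. In all contused minus all uninjured it was 172, 211 and 182 with the offset, the filter and other moderation, against 99. With 1 array left out the ranges were 0 to 1 in X-ray minus contusion, 0 to 3 in X-ray minus the other treated groups, 0 to 3 for clenbuterol, 0 to 1 each for tempol, BSO and tempol plus BSO, 1 to 3 in contusion minus laminectomy, 4 to 17 in contusion minus normal, 1 to 5 in laminectomy minus normal and 59 to 97 in all contused minus all uninjured.

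Same-numbered arrays of different groups did not deviate together (correlations of −0.20 to 0.20 over 71 pairs). Arrays of different numbers gave −0.20 to 0.23 over 140 pairs. These correlations cannot show whether samples of the same number were handled together, and the labels give no pairing. With the replicate block 0 of the 10 probe sets passed in any comparison. Probe sets of low signal, such as Mdm2 1383485_at and Fas 1369900_at, and groups of 2 arrays limit what could be detected.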
